A study of Homo sapiens with 6 samples.

Results

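The genes described are 8 stress effectors: the pseudokinase TRIB3, the secreted glycoprotein STC2, the lipoprotein receptor VLDLR, the glutathione-degrading enzyme CHAC1, and DDIT4, SESN2, SESN1 and SESN3, which restrain the growth kinase complex mTORC1. They were chosen by symbol, and all 8 were found among the 34690 symbols of the arrays. The series holds 6 Illumina BeadChip arrays of RNA that the labels give to SNU761, an established hepatocellular carcinoma line. The control cells (3 arrays) received the vehicle DMSO alone and the treated cells (3 arrays) received sorafenib, an inhibitor of RAF and of growth factor receptor kinases, each for 24 h. The labels write the dose as 3 mM, a unit that is uncertain because millimolar doses are far above those usual in culture. No other agent or genetic change is named for either group, and the arrays of a group carry the numbers 1 to 3. The study set sorafenib beside inhibition of protein disulfide isomerase, and the comparison made here is sorafenib against vehicle. The labels name a single line, and whether replicates were separate cultures is not stated in the labels, so p-values measure the spread between these samples, which may be technical.

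Cells that run short of amino acids or accumulate unfolded protein in the endoplasmic reticulum (ER) phosphorylate the initiation factor eIF2alpha, which lowers general translation and raises the transcription factor ATF4. ATF4, often with its target CHOP (gene DDIT3), switches on genes of amino acid supply and a group of effectors that act on signalling, redox state and growth. TRIB3, CHAC1, STC2, SESN2, DDIT4 and VLDLR are known ATF4 targets in various cells, DDIT4 is also induced by hypoxia, and SESN1 and SESN3 are better known as targets of p53 and of FOXO factors. In liver, TRIB3 is known for its links to insulin signalling and VLDLR for lipid uptake.

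Promoter windows are shown for 3 of the genes because their responses differed: CHAC1 and DDIT4, whose differences had opposite signs in different pairs of arrays, and STC2, which was higher in every pair. Each window runs from 250 bases before to 50 bases after the start of transcription, is written 5′ to 3′ on the strand of the gene, and comes from RefSeq on build GRCh38.p14. All 8 genes had at least 1 window, 12 windows in all. Capitals mark the motifs found.
CHAC1 (chr15:40953221-40953520, plus strand): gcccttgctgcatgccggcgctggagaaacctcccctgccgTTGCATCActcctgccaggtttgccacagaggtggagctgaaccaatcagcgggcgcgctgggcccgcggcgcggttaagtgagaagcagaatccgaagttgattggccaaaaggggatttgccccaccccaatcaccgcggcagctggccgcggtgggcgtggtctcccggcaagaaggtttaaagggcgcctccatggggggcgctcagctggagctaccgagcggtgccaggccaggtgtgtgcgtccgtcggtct
DDIT4 (chr10:72273674-72273973, plus strand): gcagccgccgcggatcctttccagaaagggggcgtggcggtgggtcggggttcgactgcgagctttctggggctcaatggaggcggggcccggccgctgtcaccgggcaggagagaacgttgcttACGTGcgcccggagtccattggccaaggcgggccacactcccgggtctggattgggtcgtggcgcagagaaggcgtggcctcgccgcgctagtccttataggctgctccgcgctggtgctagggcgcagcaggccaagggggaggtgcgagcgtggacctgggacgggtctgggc
STC2 (chr5:173328365-173328664, minus strand): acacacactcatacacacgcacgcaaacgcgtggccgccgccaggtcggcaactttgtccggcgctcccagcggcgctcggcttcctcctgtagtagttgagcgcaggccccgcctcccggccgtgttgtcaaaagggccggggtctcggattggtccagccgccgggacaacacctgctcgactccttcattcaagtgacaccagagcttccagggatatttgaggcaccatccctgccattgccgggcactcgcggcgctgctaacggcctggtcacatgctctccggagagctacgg
Both strands were searched for 4 motifs. The core of the C/EBP-ATF response element, TGATGNAA, which ATF4 dimers bind, was found in 1 of the 12 windows, that of CHAC1, where it reads TTGCATCA on the printed strand and begins at position −209 from the start site. It was present in 3.62% of all 35116 windows. The core of the hypoxia response element was searched in the form ACGTG alone. That form was also found in 1 of the 12 windows, that of DDIT4, beginning at position −125 from the start site. It was present in 21.4% of all windows. Other forms of this core, such as GCGTG, were not searched and are not marked. The cAMP response element TGACGTCA (1.85% of all windows) and the ER stress response element (0.0769%) were in none of the 12. No motif found overlapped another, and a match is a description of letters, not of binding.

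Resemblance between arrays followed the replicate number rather than the treatment, so each sorafenib array is set beside the control array of its number, and the 2 together are called a pair. Across tested symbols, which are not independent, Pearson's r was 0.966 to 0.984 within pairs, 0.932 to 0.959 between arrays numbered 1 and 2, and 0.793 to 0.833 between arrays numbered 3 and the remaining arrays. Of the sum of squares, 88.1% lay between replicate numbers. The arrays numbered 3 also differed in markers. On them 13 of 20 hepatocyte markers were detected, with a summed linear level of 53485 in control and 54334 in sorafenib, against 18 to 19 markers and 127555 to 238663 on the other 4 arrays. APOA2, TTR and GPC3, bright on control arrays 1 and 2 (log2 of 15.69 and 14.56, 13.82 and 13.68, and 14.13 and 14.02), were not detected on either array numbered 3, where they lay between 4.83 and 5.45, while ALB was higher there (14.43 in control) than on control arrays 1 and 2 (9.63 and 9.89). Of 16 leukocyte markers, 7 and 8 were detected on arrays numbered 3 and 6 to 7 on the others. Their summed level of 22972 and 29747 on arrays numbered 3, against 4021 to 5280, was mostly RAC2; the other 15 summed to 6281 and 6433 there and to 3988 to 5234 elsewhere. Whether the arrays numbered 3 hold the same cells as the others was not tested, and a mean over 3 pairs is to be read with that limit. Of 14 fibroblast and stellate cell markers, 12 were detected on control array 3 and 8 on sorafenib array 3, against 7 on each other array. Their summed level was 9586 and 8439 on arrays numbered 3, within the 6768 to 12917 of the others. At most 3 of 13 endothelial markers were detected on any array. Mean differences of the tested stress effectors and medians of the related gene lists are therefore given with and without pair 3. Single genes of those lists are given over 3 pairs only. The part of these marker differences in the results was not tested. In RNA from whole cultures, fewer cells of a type and less RNA per cell cannot be told apart.

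Of the 8 genes, 7 passed the filter for testing, which kept symbols detected (detection p below 0.05) on 3 or more arrays; VLDLR did not pass. None of the 7 was called by limma at an adjusted p under 0.05 (Benjamini-Hochberg over 14641 symbols), either in the planned fit of treatment alone or in the one that adds replicate number as a block. The background was the same: both fits called 0% of all tested symbols, with 310 symbols (2.12%) at an unadjusted p under 0.05 in the planned fit and 2776 (19%) with the block. Adding a variance trend and robust estimation to the block, here the paired trended fit, gave 0.977% of tested symbols as called (2918 symbols, 19.9%, at an unadjusted p under 0.05) and again 0 of the 7. That fit called 0 symbols when all symbols served to estimate the background, so its calls on 3 pairs depend on that choice. The same background was not run for that fit without a pair. The values below are log2 levels after background correction and quantile normalization, so that a difference of 1 is a doubling, and every pair difference is sorafenib minus control.

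TRIB3, STC2 and SESN3 were higher with sorafenib in all 3 pairs (SESN3 undetected in pair 3), 3 of 7 tested genes where 21.5% of all tested symbols were. DDIT4 and SESN1 changed sign between pair 3 and both other pairs, CHAC1 did so between pairs 1 and 3 (undetected in pair 2), and SESN2 was mixed. No tested gene was lower in all 3 pairs, against 22.2% of all tested symbols. Control and sorafenib arrays overlapped for all 7, where 3.22% of tested symbols had groups fully apart upward and 3.25% downward. Directions by pair, in these counts and in the shares over all symbols, use every measured signal, detected or not. The median difference of the 7 was 0.35, 0.41 and 0.67 in pairs 1, 2 and 3, beside medians within 0.01 of 0 for all tested symbols.

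**Figure D1:**
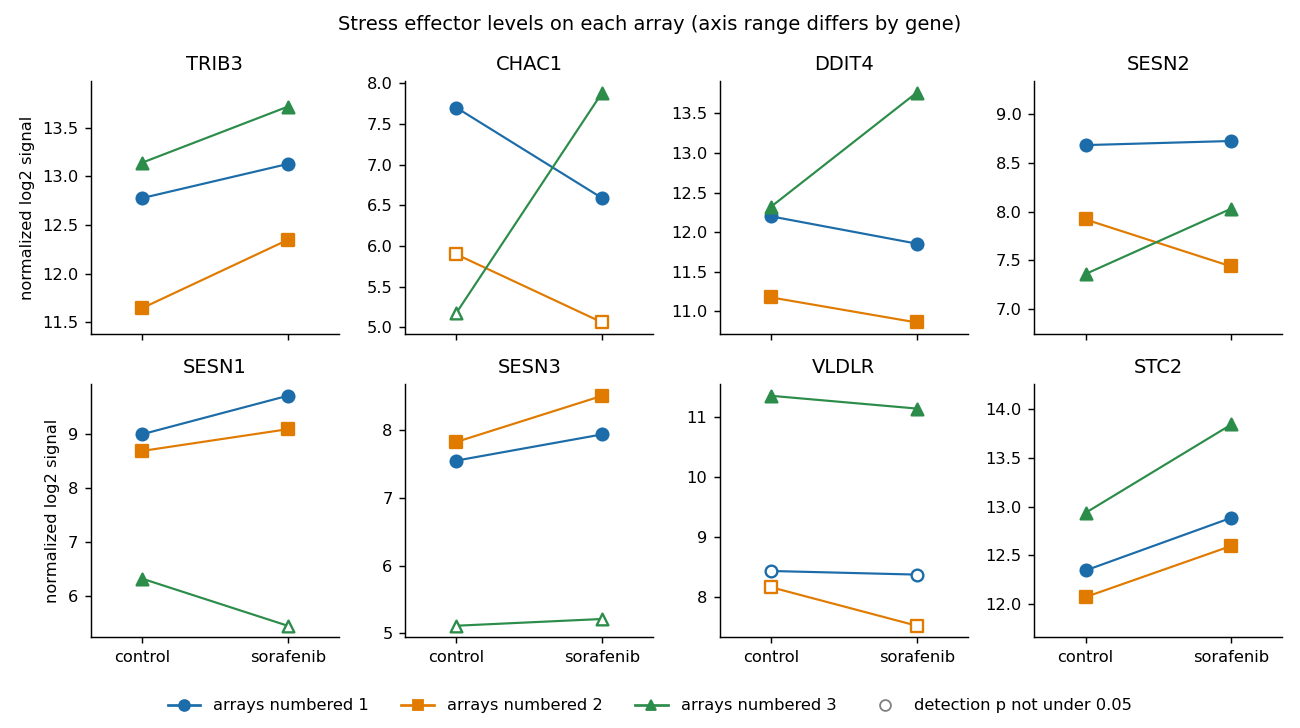
Normalized log2 signal of each stress effector on every array, with a panel per gene, control on the left and sorafenib on the right, and a line joining the arrays of 1 replicate number. Open symbols are arrays where the gene did not pass a detection p of 0.05; the lines of TRIB3 and STC2 run upward in all 3 pairs, and those of CHAC1 cross, with open symbols on 3 arrays.

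TRIB3 encodes a pseudokinase that is induced through ATF4 and CHOP, binds the kinase AKT and restrains ATF4 in turn. Its level was 12.77, 11.64 and 13.14 on control arrays 1, 2 and 3 and 13.13, 12.35 and 13.71 on sorafenib arrays 1, 2 and 3. Each sorafenib array was higher than its partner, while array 2 of both groups lay below all arrays numbered 1 and 3, so that the groups overlapped. The differences of 0.35, 0.70 and 0.58 gave a mean of 0.54 ± 0.18 (SD, n = 3 pairs), or 1.46-fold. In the planned limma fit the 95% interval was −0.75 to 1.83 (adjusted p = 0.99997). With the replicate number as a block it was 0.15 to 0.94 (limma adjusted p = 0.173), and in the paired trended fit the adjusted p was 0.0644. TRIB3 was bright and detected on all 6 arrays, and 81.8% of its sum of squares lay between replicate numbers.

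STC2 encodes stanniocalcin 2, a secreted glycoprotein known to inhibit the protease PAPP-A and to be induced by ATF4 in the unfolded protein response. Its level was 12.34, 12.07 and 12.93 on control arrays 1, 2 and 3 and 12.88, 12.60 and 13.84 on the sorafenib arrays. Control array 3 exceeded sorafenib arrays 1 and 2, and within pairs every sorafenib array was the higher. The differences were 0.54, 0.53 and 0.91, a mean of 0.66 ± 0.22 (SD, n = 3 pairs), or 1.58-fold. Of the 7 tested genes STC2 had the largest mean difference and the largest share of its sum of squares between treatments, 34.3%. The interval was −0.38 to 1.70 in the planned fit (limma adjusted p = 0.99997) and 0.26 to 1.06 with the block (adjusted p = 0.140), and the adjusted p of the paired trended fit was 0.0504, just above the threshold. Among all tested symbols 641, STC2 included, had a mean difference at least as high.

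Both stayed higher when pair 3 was left out. Over pairs 1 and 2 TRIB3 differed by 0.53 and STC2 by 0.53. Each then passed in the paired trended fit, TRIB3 with a limma adjusted p of 0.0256 and STC2 with 0.0212, where that fit called 9.39% of all tested symbols, 4.38% as higher. With the block alone and no pair 3, limma called 2.19% of tested symbols and 0 of the 7 genes, TRIB3 having an adjusted p of 0.227 and STC2 of 0.206. The paired trended fit on 2 pairs was added with these data known, and neither gene passed without pair 1 (adjusted p = 0.134 for TRIB3 and 0.107 for STC2; 0.396% of all symbols called) or without pair 2 (0.225 and 0.136; 0.00683% called).

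**Figure D2:**
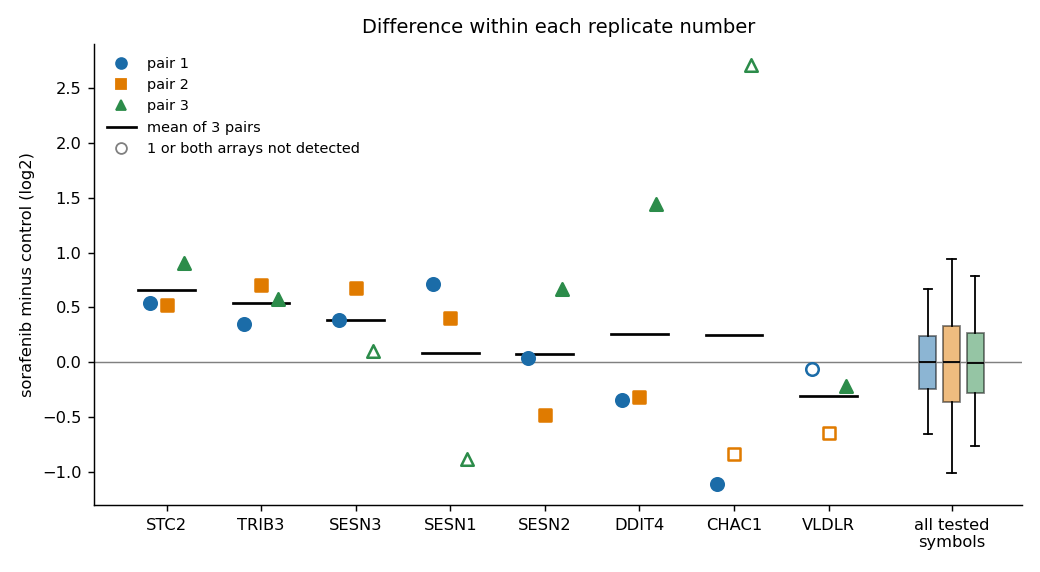
Sorafenib minus control (log2) within each replicate number for the 8 genes, with black bars at the mean of 3 pairs and, at the right, boxes for all tested symbols (median, quartiles, whiskers at the 5th and 95th percentiles). STC2 and TRIB3 lie between 0.35 and 0.91 in every pair, whereas CHAC1 runs from −1.11 to 2.71, the last against an undetected control.

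CHAC1 encodes a gamma-glutamyl cyclotransferase that breaks down glutathione and is a known target of ATF4 downstream of ER and amino acid stress. Its deposited signal was 333, 183 and 135 intensity units on control arrays 1, 2 and 3 and 198, 122 and 345 on the sorafenib arrays. The highest and the lowest signal thus both belonged to sorafenib arrays. It was detected on control array 1 (detection p of 0.0013) and on sorafenib arrays 1 (0.0026) and 3 (listed as 0), and not on control arrays 2 (0.0532) and 3 (0.588) or sorafenib array 2 (0.690). On the normalized log2 scale the levels were 7.70, 5.90 and 5.17 in control and 6.59, 5.06 and 7.89 in sorafenib.

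The direction of CHAC1 therefore depended on the pair. In pair 1, where both arrays detected it, CHAC1 differed by −1.11, or 2.16-fold lower with sorafenib. In pair 2 neither array detected it, so the difference of −0.84 lies between signals without a set order. In pair 3 CHAC1 was undetected in control and detected in sorafenib, with a measured difference of 2.71; against the lowest level detected on that control array (log2 of 5.91), it was at least 3.94-fold higher. The mean over 3 pairs, 0.25 ± 2.13 (SD, n = 3 pairs), averages opposite signs; its planned interval was −1.98 to 2.48 and its limma adjusted p was 0.99997 in the planned fit and 0.867 with the block. Without pair 3 the difference was −0.98, with a limma adjusted p of 0.0556 with the block and 0.0165 in the paired trended fit, which called 5.01% of all symbols lower; only pair 1 of the 2 pairs had detected signals.

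CHAC2, the paralogue of CHAC1 that degrades glutathione slowly and is not known as a stress target, differed by −1.12, −0.68 and −0.26. Both arrays detected it in pair 2, control alone in pair 1 (lower by at least 0.51 on the log2 scale) and neither in pair 3, and its mean of −0.69 ± 0.43 (SD, n = 3 pairs) did not pass (limma adjusted p = 0.172 with the block). The 19 tested genes of glutathione synthesis and breakdown apart from CHAC1 had a median of 0.12. Of these, 5 were higher and 2 lower in every pair, and limma called 0 in any of the 3 fits. By pair the median was −0.05, 0.07 and 0.10, and over pairs 1 and 2 together it was −0.02. CTH, the last enzyme in making cysteine from methionine, was at 9.36, 9.23 and 6.57 in control and 10.38, 10.29 and 9.47 in sorafenib, a mean of 1.66 ± 1.07 (SD, n = 3 pairs; limma adjusted p = 0.126 with the block). The cystine transporter SLC7A11 differed by 0.15, 0.51 and 1.37 but was detected on 1 control and 2 sorafenib arrays. For SLC7A11 neither array of pair 2 and only sorafenib in pair 3 detected it, so that the difference there is at least 0.47. CTH and SLC7A11 were also counted among the ATF4 and integrated stress response genes described below, so those lists are not separate.

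DDIT4, also called REDD1, releases the TSC complex to shut off mTORC1 and is induced by hypoxia, ATF4 and p53. It was bright on every array, at 12.20, 11.18 and 12.32 in control and 11.85, 10.86 and 13.76 in sorafenib. Sorafenib array 3 stood above all other arrays, and the remaining sorafenib arrays lay below their partners. The differences were −0.35, −0.32 and 1.44, or 1.27-fold and 1.25-fold lower in pairs 1 and 2 and 2.72-fold higher in pair 3. Of the 7 tested genes, DDIT4 alone was lower in pairs 1 and 2 and higher in pair 3 with detected signals throughout, a pattern of sign held by 10.4% of all tested symbols; CHAC1 had it only if its undetected signals in pair 2 are read. The mean of 0.26 ± 1.03 (SD, n = 3 pairs) had a planned interval of −1.63 to 2.15 and a limma adjusted p of 0.721 with the block. Without pair 3 the difference was −0.33 (limma adjusted p = 0.437 with the block). DDIT4L, its paralogue, was higher by 0.30 and 0.09 in pairs 1 and 2 and undetected on both arrays of pair 3.

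**Figure D3:**
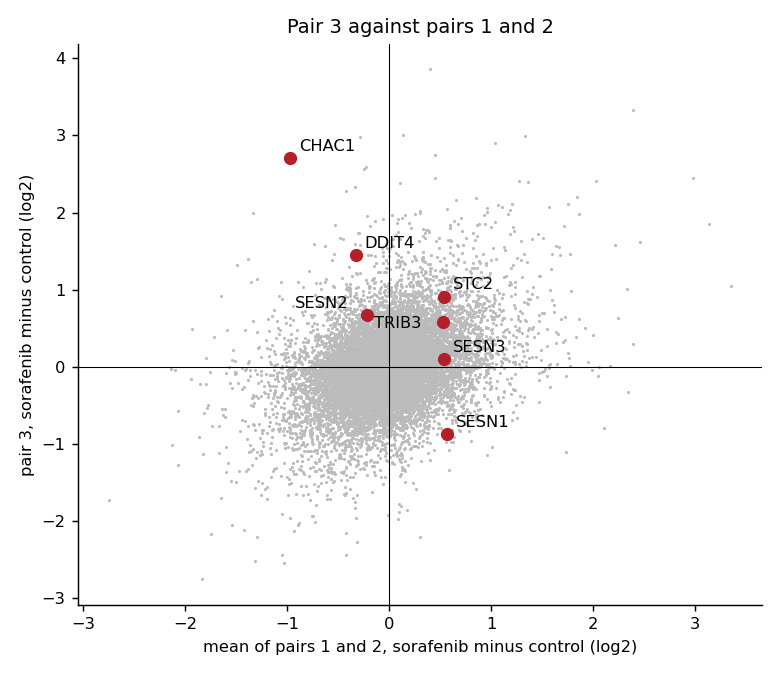
Each point is a tested symbol, with the mean difference of pairs 1 and 2 on the horizontal axis and the difference of pair 3 on the vertical axis (log2, sorafenib minus control); the 7 tested stress effectors are in red. CHAC1 lies far up on the left at −0.98 and 2.71 (values that include undetected signals), DDIT4 lies on the same side, and SESN1 lies on the opposite side at 0.56 and −0.88.

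The sestrins are stress-induced proteins that hold back mTORC1. SESN2 binds leucine and inhibits the GATOR2 complex when leucine is scarce, and it is induced by ATF4, NRF2 and p53. Its level was 8.68, 7.92 and 7.36 in control and 8.73, 7.44 and 8.03 in sorafenib. The order of the treatments differed by pair, with almost no difference in pair 1. The differences were 0.04, −0.48 and 0.67, a mean of 0.08 ± 0.58 (SD, n = 3 pairs) with a planned interval of −1.10 to 1.25 and a limma adjusted p of 0.882 with the block. Without pair 3 the mean turned to −0.22.

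SESN1, a classical p53 target that FOXO factors also induce, was at 8.998, 8.69 and 6.32 in control and 9.71, 9.09 and 5.44 in sorafenib. The arrays numbered 3 were the lowest of both groups, and sorafenib array 3 did not detect the gene (detection p of 0.321). SESN1 was higher by 0.72 and 0.41 in pairs 1 and 2 and lower in pair 3 at −0.88, or at least 1.21-fold lower against the lowest level detected on that array. This pattern, higher in pairs 1 and 2 and lower in pair 3, was held by 11.4% of all tested symbols and by SESN1 alone among the 7. The mean was 0.08 ± 0.84 (SD, n = 3 pairs; limma adjusted p = 0.903 with the block), and without pair 3 it was 0.56 (adjusted p = 0.197).

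SESN3, a FOXO target, was at 7.55, 7.83 and 5.11 in control and 7.94, 8.51 and 5.21 in sorafenib. It too was lowest on the arrays numbered 3, where neither array detected it, so that its difference of 0.10 there carries no direction. In the detected pairs it was higher by 0.39 and 0.68. The mean was 0.39 ± 0.29 (SD, n = 3 pairs), or 1.31-fold, with a limma adjusted p of 0.3003 with the block, and 0.53 without pair 3 (adjusted p = 0.216). Differences between replicate numbers made up 95.2% of the sum of squares of SESN1 and 97.1% of that of SESN3, against a median of 80.3% over all tested symbols.

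Other regulators of mTORC1 lay on both sides of 0. The 33 tested genes apart from DDIT4 and the sestrins had a median of 0.0030, with 10 higher and 8 lower in all pairs, which is 30.3% and 24.2% of them, and limma called 0 in any of the 3 fits. The pair medians were 0.06, 0.06 and −0.08, and without pair 3 the median was 0.05. FLCN, which acts on the Rag GTPases at the lysosome, differed by 1.01, 1.73 and 0.11, and the Rag GTPase RRAGD by 0.99, 1.31 and 0.49. Both lay higher in every pair, and RRAGD had the lower adjusted p (0.123 with the block and 0.0575 in the paired trended fit, limma). At the other end the TSC complex subunit TBC1D7 differed by −0.42, −0.42 and −0.42, and the Rag GTPase RRAGB by −0.01, −0.42 and −1.05, and neither passed.

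VLDLR, the receptor for very low density lipoprotein and reelin, is raised through ATF4 in mouse liver under ER stress. Its deposited signal was 490, 405 and 2759 intensity units in control and 483, 272 and 2346 in sorafenib. The arrays numbered 3 were the brightest of each group, and these were the only arrays where VLDLR was detected (detection p of 0.000273 in control and 0.0149 in sorafenib). Its detection p-values were not steps of a single probe, so several probes may have been combined, and the remaining arrays, at 272 to 490 units, had detection p-values of 0.223 to 0.485. On the log2 scale it was at 8.43, 8.16 and 11.36 in control and 8.37, 7.52 and 11.15 in sorafenib. The measured differences were −0.06, −0.64 and −0.21, of which only the last lies between detected signals, with a mean of −0.31 ± 0.30 (SD, n = 3 pairs) that was not tested, and in the detected pair it was 1.16-fold lower.

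Relatives of VLDLR were measured on the same arrays. LRP8, the other reelin receptor, differed by −2.10, −0.72 and −0.71 (limma adjusted p = 0.0869 in the paired trended fit). MYLIP, a ubiquitin ligase that degrades VLDLR, was higher by 0.54, 0.23 and 1.77 and did not pass. LRP5 (mean −0.44) and LRP6 (mean −0.31), the WNT co-receptors, were lower in all pairs, while LRP1, LRP2, LRP4 and RELN were mixed, with means from −0.36 to −0.08. LRP2 and RELN were each detected on both arrays in pair 1 alone, on control only in pair 2 and on neither array of pair 3. SORL1, not tested, had a mean of 0.35 and was detected on 1 array of each group.

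The paralogues of TRIB3 and STC2 gave no calls. TRIB1, a scaffold for degradation of C/EBP factors in liver, was higher by 0.22, 1.41 and 0.06, and TRIB2, undetected on sorafenib array 2, differed by −0.51, −0.09 and −0.43. STC1, the other stanniocalcin, was at 5.30, 6.13 and 9.46 in control and 5.27, 5.54 and 8.30 in sorafenib, so that it was bright on arrays numbered 3 and near background elsewhere. Its mean difference of −0.59 ± 0.56 (SD, n = 3 pairs) did not pass, and only pair 3 had both arrays detected. Over all 15 tested relatives the median was −0.33, with 3 higher and 8 lower in all pairs.

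The related gene lists placed these effectors beside the factors known to drive them. The 42 tested ATF4 and integrated stress response genes had a median of 0.53. By pair it was 0.26, 0.20 and 1.05, so that pair 3 was highest. In all 3 pairs 22 of the 42 (52.4%) were higher and 3 (7.14%) were lower, against 21.5% and 22.2% of all tested symbols. The list was written with earlier results of these data known, so its shares and calls are descriptive only. In the paired trended fit 8 rose and 0 fell, where it called 0.519% of all symbols higher. DDIT3 rose by 2.71 ± 0.83 (SD, n = 3 pairs; limma adjusted p = 0.0201 in that fit) and the chromatin-associated stress protein NUPR1 by 2.18 ± 0.53. ATF4 itself differed by 0.24, 0.34 and 0.93 and did not pass. At the other end TXNIP, an inhibitor of thioredoxin, had a mean of −0.93 and the amino acid transporter SLC38A2 one of −0.64, neither past the threshold. Without pair 3 the list median was 0.29, and without control array 3 it was 0.15. When all symbols supplied the background estimate, the paired trended fit called 0 symbols, so the 8 calls above depend on that choice.

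**Figure D4:**
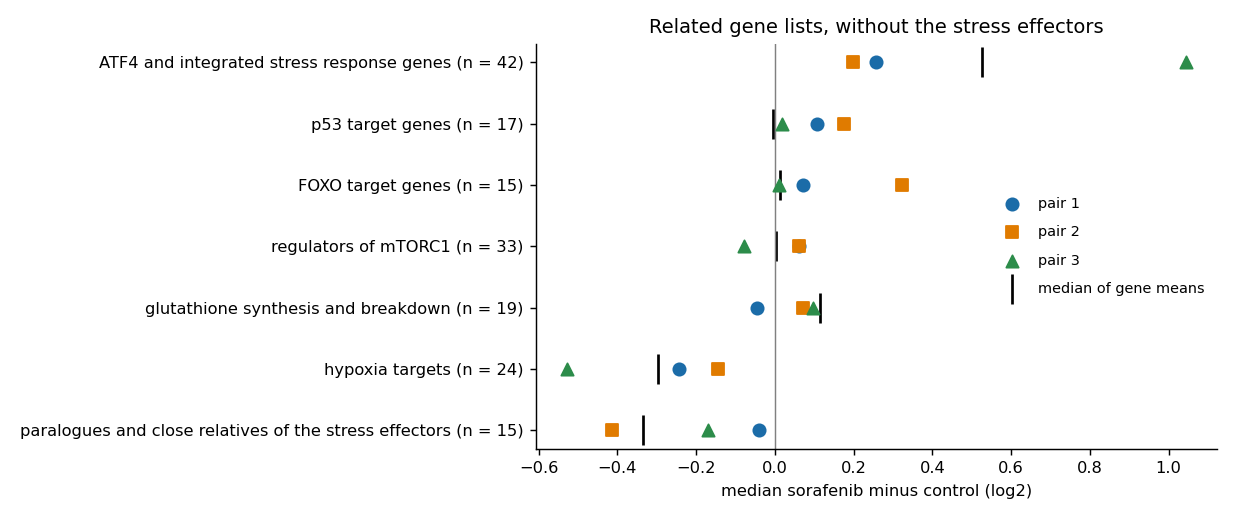
Median sorafenib minus control (log2) over the tested genes of each list, by pair (coloured symbols) and for the mean of the pairs (black bars), leaving out the 8 stress effectors; n is the number of genes tested. The ATF4 list lies above 0 in every pair and highest in pair 3 at 1.05, and the hypoxia list lies below 0 in every pair.

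The lists of hypoxia, p53 and FOXO targets, also written with earlier results known, had medians near or below 0 over 3 pairs. No list of NRF2 targets was made. The 24 tested hypoxia targets apart from DDIT4, STC2 and VLDLR had a median of −0.30, with 4 higher and 12 lower in all pairs. Without pair 3 the median was −0.29. Without control array 3 it was 0.08, and over fits leaving out 1 array the lowest was −0.65. In the paired trended fit, which called 0.458% of all symbols lower, 2 of them fell: PFKFB3, which makes an activator of glycolysis, by 1.15 on the log2 scale (limma adjusted p = 0.0382), and ANKRD37 by 1.39 (adjusted p = 0.0382), although sorafenib array 2 did not detect the latter. The transcription factor BHLHE40, read under its older name, had a mean of 1.12, and ANGPTL4, an inhibitor of lipoprotein lipase, one of 0.93, with no detected signal in pair 3, and neither passed. The 17 tested p53 targets apart from the sestrins had a median of −0.0048, and of −0.01 without pair 3. Of these, 6 (35.3%) were higher and 3 (17.6%) lower in all pairs, against 21.5% and 22.2% of all tested symbols. The 15 tested FOXO targets had a median of 0.01, with 6 higher and 2 lower. GADD45A, a growth arrest gene on both lists, rose by 2.16 ± 0.78 (SD, n = 3 pairs; limma adjusted p = 0.0335 in the paired trended fit) and was the only call on either. DDB2, a DNA repair gene, had a mean of 0.89, KLF6 one of 1.24, TIGAR one of −0.85, POLH one of −0.53 and the cyclin CCNG2 one of −0.66, none past the threshold; DDB2, TIGAR and POLH were each undetected on 1 array.

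The tested symbols most like a gene were taken as those with the smallest Euclidean distance between the 3 pair differences. For STC2 these were MBOAT1 (distance 0.0559), ARHGAP24 (0.0702) and PRSS3 (0.0790), and for TRIB3 they were ZC2HC1A (0.0408, listed as FAM164A), UVRAG (0.0615) and CETN3 (0.0657). For DDIT4 they were S100P (0.150), KIF20A (0.218) and DLGAP5 (0.232). For CHAC1, whose pair 2 and pair 3 differences include undetected signals, they were TMEM178A (0.950, listed as TMEM178), RAPGEF5 (0.968) and PLAT (0.997). RAPGEF5 differed by −0.29, −0.56 and 2.28 and was detected on all 6 arrays. TMEM178A, PLAT, S100P, CETN3 and ARHGAP24 were each detected on 5 arrays, and the remaining matches named here on all 6. With 3 differences per gene, close matches arise among many symbols and describe these arrays only.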

How the data were processed

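The authors deposited non-normalized signal intensities in 1 table per group, with 1 value per gene symbol and array; per the file headers, a detection p-value, which sets the signal against background beads, stands beside each intensity. How probes of a symbol were combined is not given in the sources used here. A further deposited table holds log2 values and was not used. In it 0 of the 59 symbols with sorafenib values were within 0.001 of their own quantile-normalized log2 signal. Its control columns differed from such signals by at most 0.008, so that tolerance is stricter than the control agreement. Both signal tables were joined by symbol.

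In R 4.3.3 with limma 3.58.1, background was corrected by neqc (offset 16), its background taken from the 27247 symbols whose detection p-values were whole multiples of 1/770 on all arrays (tolerance 0.001), and arrays were quantile-normalized and brought to log2. Estimated background was 112 to 139 units, and 13195 to 15227 symbols per array had a detection p under 0.05. Symbols under 0.05 on at least 3 arrays (14641) were fitted with lmFit and eBayes, two-sided, with Benjamini-Hochberg adjustment at 0.05. The planned fit held treatment alone. Arrays were treated as paired by number because r of levels was 0.966 to 0.984 within pairs and 0.932 to 0.959 between arrays numbered 1 and 2. Deviations from group means of same-numbered arrays correlated at 0.904, 0.791 and 0.926. The offset of the arrays numbered 3 enters all these deviations, and different numbers were not compared, so they do not settle the pairing. The fit with a replicate block is printed beside the planned one. The number of arrays limits the precision. The fits were tested on simulated data with differences between replicate numbers. The planned fit recovered none of the known changes and the fits with the block recovered part of them, so a planned count of 0 says little. Simulated noise was capped below the spread of variable genes such as CHAC1 and DDIT4, so recovery with the block may be overstated for them.

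The genes, the lists, written from general knowledge, and the paired trended fit were chosen with earlier results of these data known. All 8 genes, the listed relatives (some are not reported here) and up to 4 genes per list (2 highest and 2 lowest mean differences among those of 1 sign in all pairs) could be named; RAC2, APOA2, TTR, GPC3, ALB and ATF4 were on the lists but named outside this rule, after their values were seen. A ± value is the SD over 3 pairs. A bound uses the lowest level of a single-probe symbol detected on the array below detection.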

Additional observations from a re-analysis of the deposited data

How the results depend on the processing

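The planned fit and the fit with the replicate block called 0 genes, and so did every fit that left out 1 array (0 to 0). The count was 143 with the block, a variance trend and robust estimation, and, as alternatives chosen after seeing the data, that fit called 58 genes without pair 1, a single gene (1) without pair 2 and 1375 when pair 3 was left out; the block alone called 320 without pair 3. When all symbols supplied the background estimate, the paired trended fit (also chosen after seeing the data) called 0, and TRIB3 differed by 0.66 and STC2 by 0.77. The cause of these changes was not tested. The replicate block changed no call of the 7 tested genes.

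TRIB3 and STC2 were higher under all alternatives, at 0.11 to 0.90 and 0.29 to 0.92 when 1 array was left out. The sign turned for CHAC1 with array weights (−0.24) and without control array 3 (−0.29), sorafenib array 3 (−0.43) or pair 3 (−0.98). It turned for DDIT4 without control array 2 (−0.10), sorafenib array 3 (−0.54) or pair 3 (−0.33), and for SESN2 with array weights (−0.047) and without control array 3 (−0.24), sorafenib array 1 (−0.25) or pair 3 (−0.22). SESN1 turned without control replicate 3 (−0.76), sorafenib replicate 1 (−0.73), sorafenib replicate 2 (−0.42), pair 1 (−0.24) or pair 2 (−0.080), and SESN3 without control replicate 3 (−0.47) or sorafenib replicate 2 (−0.25). VLDLR, untested, was at 0.71 without control replicate 3, and at 0.01 and 0.44 when sorafenib replicate 1 or 2 was left out. Leaving out 1 array gave a highest value of 0.98 for CHAC1, 0.91 for DDIT4, 0.43 for SESN2, 1.403 for SESN1 and 1.39 for SESN3, and a lowest of −1.37 for VLDLR. Such a fit holds no block, so differences between replicate numbers enter it. With that same background CHAC1 was at 0.01, SESN2 at 0.01 and SESN3 at 0.05, and the list medians were −0.02 for the 15 relatives, −0.14 for the hypoxia targets, 0.0046 for the glutathione genes and 0.39 for the ATF4 list. Leaving out 1 array moved the median of the p53 targets from −0.07 to 0.19, of the FOXO targets from −0.10 to 0.22, of the mTORC1 regulators from −0.05 to 0.14 and of the glutathione genes from −0.13 to 0.29. Signal near background limits CHAC1, SESN1 and SESN3, each undetected on at least 1 array. VLDLR was detected on 1 array of each group. Its undetected signals were 272 to 490 units, where the background estimated from single-probe symbols was 112 to 139. Several probes may have been combined for VLDLR, so how near background it lay is not known.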
